A study of Mus musculus with 16 samples.

Results

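A set of 10 genes of steroid metabolism was followed by gene symbol in 2 tissues of adult male 129BL/6 mice. These were the efferent ducts, through which sperm leave the testis, and the caput, the head of the epididymis. The genes were the reductases Srd5a2 and Srd5a3, the aromatase Cyp19a1, the hydroxysteroid dehydrogenases Hsd11b1, Hsd11b2, Hsd17b1, Hsd17b2 and Hsd17b11, and the sulfotransferases Sult1d1 and Sult1e1. All probe sets annotated with exactly 1 of these symbols were taken, which gave 15 probe sets for 8 genes, out of 34958 probe sets with 1 symbol for 18194 genes. Srd5a2 and Cyp19a1 had no such probe set and were not analysed here.

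RNA had been hybridised to 16 one-colour Affymetrix arrays, 2 in each of 8 groups. In each tissue the groups were castrated mice given 0.015 mg testosterone propionate (TP), castrated mice given 0.015 mg estradiol (E2), castrated mice given vehicle (castrated) and sham-operated mice given vehicle (sham). The vehicle was 100 µL of 10% ethanol in sesame oil, the injection followed surgery by 14 days, and tissue was taken 12 hours after it. Both hormone groups were thus castrated mice, and the sham mice alone kept their testes. The labels do not say whether an array held 1 animal or a pool, or that the arrays of a group came from separate animals, so p-values measure only the spread between these arrays.

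Steroid hormones act in the excurrent ducts at a level set partly by enzymes in the tissue itself. Reductases and dehydrogenases convert androgens, estrogens and glucocorticoids between active and less active forms, and sulfotransferases add a sulfate group that keeps a steroid from binding its receptor. The efferent ducts are known for high estrogen receptor levels and the caput epithelium for its dependence on androgens.

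Several arrays stood apart. In the efferent duct the log2 ratio of 3' to 5' actin signal was 0.913 to 1.93 on the 4 hormone arrays, against 3.11 to 3.87 on the 4 vehicle arrays, and it was 0.636 to 1.20 on the 8 caput arrays. The brightest probe set of an array read 3218 to 4517 on the efferent duct hormone arrays and 14456 to 19967 on the vehicle arrays. Each hormone group against castrated in this tissue crosses that split, whereas castrated against sham and TP against E2 lie inside it. TP replicate 1 of the efferent duct held germ cell transcripts (summed intensity of 8 markers 2160, against 144 in replicate 2) and caput principal cell transcripts (6 markers, 1719 against 135). Sham replicate 2 of the efferent duct also held more caput transcripts than sham replicate 1 (4576 against 1585). In sham mice the 6 efferent duct epithelium markers summed to 2577 and 2415 in efferent duct and 1018 and 1131 in caput. They did not all run that way. Slc9a3, the sodium-proton exchanger of that epithelium, read 507 and 513 in efferent duct and 35.1 and 24.1 in caput. Pax8 read 268 and 262 in efferent duct and 488 and 530 in caput. The 6 caput principal cell markers summed to 47828 and 47324 in sham caput. Lcn8, a lipocalin of these cells, read 15.5 and 1126 in efferent duct and 9349.5 and 8970.3 in caput. RNA for the efferent duct (50 ng) and the caput (10 µg) had been labelled with different kits, so tissue and kit cannot be told apart.

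Promoters are shown because the hormones given act through receptors that bind DNA. Those printed were chosen after the values were seen: both sulfotransferases, the enzymes with the highest folds of efferent duct over caput in sham mice, and Hsd17b11, the gene that passed the test for castration in the caput. Each runs 5′ to 3′ from 250 bases before to 50 bases after the gene's start (RefSeq, GRCm38.p6, minus strand), and capitals mark letters of an androgen or estrogen response element.
Sult1e1, chr5:87591562-87591861: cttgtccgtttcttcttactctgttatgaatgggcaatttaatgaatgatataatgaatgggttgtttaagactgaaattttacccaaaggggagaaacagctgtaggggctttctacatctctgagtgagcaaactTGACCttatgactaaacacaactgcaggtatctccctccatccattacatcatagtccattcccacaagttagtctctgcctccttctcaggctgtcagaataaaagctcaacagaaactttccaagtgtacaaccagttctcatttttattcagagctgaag
Sult1d1, chr5:87568957-87569256: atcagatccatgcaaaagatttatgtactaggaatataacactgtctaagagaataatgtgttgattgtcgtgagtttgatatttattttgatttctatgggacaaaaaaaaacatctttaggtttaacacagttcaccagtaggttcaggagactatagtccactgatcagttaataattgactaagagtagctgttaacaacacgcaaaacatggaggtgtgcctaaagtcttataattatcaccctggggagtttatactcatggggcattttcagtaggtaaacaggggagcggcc
Hsd17b11, chr5:104021747-104022046: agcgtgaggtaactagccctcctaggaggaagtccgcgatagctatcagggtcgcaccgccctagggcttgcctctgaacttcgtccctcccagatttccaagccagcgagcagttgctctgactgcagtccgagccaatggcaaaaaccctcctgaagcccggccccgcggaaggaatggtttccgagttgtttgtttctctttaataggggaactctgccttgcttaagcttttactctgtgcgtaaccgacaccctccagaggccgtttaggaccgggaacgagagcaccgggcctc

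The search covered both strands for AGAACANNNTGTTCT and its part AGAACA, the letters of an androgen response element, and for GGTCANNNTGACC and its part GGTCA, those of an estrogen response element. RefSeq promoters were on hand for 5 of the 8 measured genes (the 3 shown, Hsd11b1 and Srd5a3). The single match to these letters among the 5 was GGTCA on the opposite strand of Sult1e1, which starts at position 138 of 300 and reads TGACC as printed. Of all 32851 promoters of this length, 40.5% hold GGTCA, 0.0700% hold the 13-letter estrogen element, 19.0% hold AGAACA and 0.00913% hold the 15-letter androgen element. Sult1d1 and Sult1e1 lie next to each other on chromosome 5 with 0 annotated genes between them.

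Hsd17b11 was the 1 gene of the 8 measured enzymes that passed the test for castration in the caput, and none passed between TP and E2 in either tissue. The test was limma on log2 intensity over all 34958 probe sets, with Benjamini-Hochberg adjusted p under 0.05 as the threshold. In the caput, 2 of 15 enzyme probe sets passed for castrated against sham, both higher, where 7.98% of all probe sets passed and 4.37% were higher. None of the 15 passed there for TP against castrated (3 at an unadjusted p under 0.05; background 0.646%), for E2 against castrated (4; background 0%) or for TP against E2 (5; background 0.724%). In the efferent duct, 0 of 15 passed for castrated against sham (4 at an unadjusted p under 0.05; background 0.206%) and 0 for TP against E2 (3; background 0%). There, 6 passed for TP against castrated, 4 higher and 2 lower (background 28.3%, with 17.8% higher and 10.4% lower), and 5 for E2 against castrated, 3 higher and 2 lower (background 23.2%, with 15.4% higher and 7.84% lower). The 15 enzyme probe sets had a median log2 difference of -0.34 for TP and -0.48 for E2 against castrated efferent duct, where all probe sets had medians of 0.15 and 0.24. For castrated against sham caput the medians were -0.07 over the 15 and 0.06 over all. The E2 median fell on a Srd5a3 probe set, 1439241_x_at, and the caput one on Hsd17b11 1443059_at. Both had means under 16, counted as not expressed here, in the groups compared, and 5 of the 15 probe sets were of Srd5a3. These 2 medians thus give no direction for the enzymes.

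**Figure D1:**
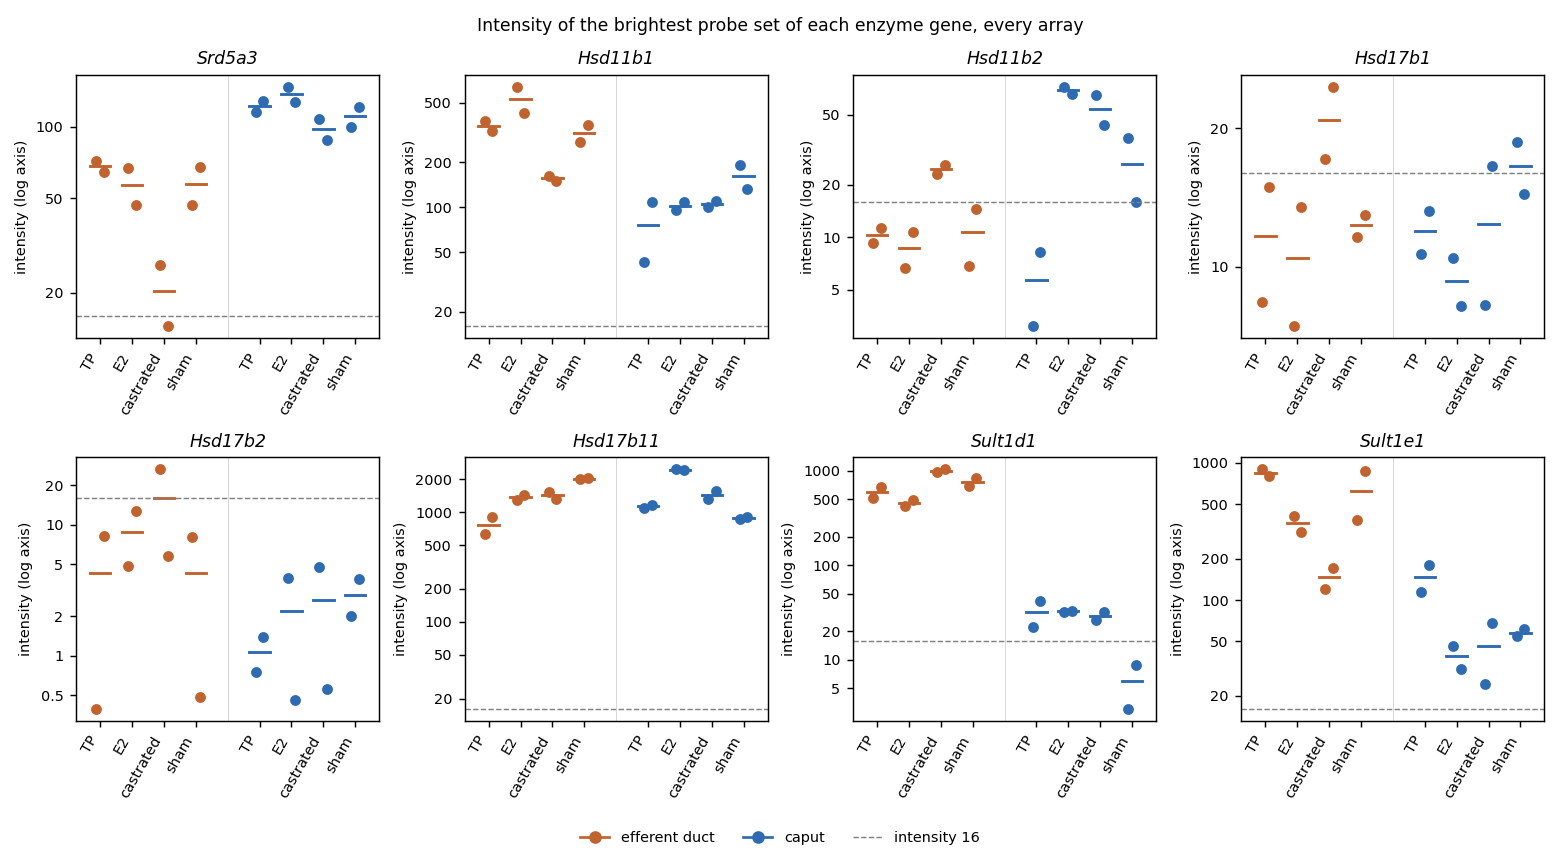
Intensity (log axis) of the brightest probe set of each of the 8 measured enzyme genes, with 1 point per array and a bar at the mean of the 2 arrays of a group; the dashed line is at 16, under which a group mean counts as not expressed. Sult1e1, Sult1d1 and Hsd11b1 sat higher in the efferent duct than in the caput, and Hsd17b1 and Hsd17b2 lay near or under the line.

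Hsd17b11 was higher in castrated than in sham caput and lower with TP than with E2. In humans its protein oxidises androstanediol, and it sits on lipid droplets. Probe set 1434642_at, the brighter one, read 1089.7 and 1175 on the TP arrays of the caput, 2459 and 2429 on the E2 arrays, 1315 and 1564 on the castrated arrays, and 866 and 896 on the sham arrays. No groups overlapped: E2 was highest, then castrated, then TP, then sham. Probe set 1421011_at read 43.6 and 50.3 with TP, 149 and 134 with E2, 151 and 99.6 in castrated and 41.0 and 42.7 in sham caput. Here the TP and sham arrays lay together at the low end, and the castrated arrays spanned the E2 arrays.

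Both probe sets rose in castrated caput against sham. The rise was 1.63-fold for 1434642_at (log2 difference 0.70, 95% interval 0.34 to 1.07, limma adjusted p = 0.0488) and 2.93-fold for 1421011_at (log2 difference 1.55, interval 0.97 to 2.14, adjusted p = 0.0265). Caput composition moved in the same comparison: all 6 caput principal cell markers were called lower, with summed intensities of 3752 and 3459 in castrated against 47828 and 47324 in sham arrays, and Lcn9, the dimmest in castrated caput, at 1.85 and 10.6. Of 8 sperm and germ cell markers, 4 were lower, with sums of 112 and 63.3 in castrated against 8289 and 2114 in sham caput. Of 4 clear and narrow cell markers, 3 were higher and 1 lower in castrated caput, and of 6 macrophage markers 2 were higher. None of 5 adipocyte markers was called, but their sums differed between the castrated arrays themselves, at 312 and 2142, against 841 and 549 in sham caput. Whether these shifts had a part in the Hsd17b11 result was not tested, and in such bulk tissue fewer cells of a type and less RNA per cell cannot be told apart. With 1 array left out in turn the log2 difference was 1.25 to 1.85 for 1421011_at and 0.58 to 0.83 for 1434642_at, and neither call was kept. Such a fit leaves 1 array in a group. A call lost in it, here or below, need not single out its gene or that array.

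With hormone, Hsd17b11 was lower after TP than after E2 on both probe sets and in both tissues, with no overlap in any of these comparisons, but none passed the adjusted threshold. In the caput the log2 difference of TP against E2 was -1.11 for 1434642_at (95% interval -1.47 to -0.75, limma adjusted p = 0.0541) and -1.59 for 1421011_at (adjusted p = 0.0627). Against castrated caput the log2 difference of 1421011_at with TP was -1.39 (interval -1.98 to -0.80, adjusted p = 0.0730). E2 against castrated gave 0.77 for 1434642_at (adjusted p = 0.160) and 0.20 for 1421011_at (adjusted p = 0.751). The adipocyte markers lay in the same order as Hsd17b11 between TP and E2 caput, with sums of 443 and 404 with TP against 1503 and 2992 with E2, although 0 of 5 passed with limma; Lep had a mean under 16 in both groups and Cidec in the TP group. Summed caput principal cell markers lay in the opposite order, at 9153 and 11716 with TP against 4746 and 3673 with E2. Of the 6, 1 was called higher. They did not all run that way. Adam7 made up most of the TP sum, at 5299.9 and 6704.5 against 449.7 and 492.1 with E2, and Crisp4 was also higher with TP. Rnase10 was lower, at 59.3 and 67.3 against 67.8 and 92.6, as was Lcn9 at means under 16. The arrays of Lcn8 and Gpx5 overlapped. The part of either list in the Hsd17b11 difference was not tested. The TP against E2 difference of 1434642_at passed the threshold with the brightest probe set per gene, quantile normalization, the dimmest 40% left out, values under 16 set to 16, an intensity trend and 1 model over 16 arrays, and not with the replicate block or with any 1 array left out.

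In the efferent duct the same probe sets disagreed. Probe set 1434642_at read 628 and 897 with TP, 1281 and 1450.3 with E2, 1528 and 1330.1 in castrated and 1995 and 2041 in sham efferent duct. TP arrays were lowest and sham arrays highest. Probe set 1421011_at read 54.1 and 46.7 with TP, 113 and 159 with E2, 21.4 and 20.2 in castrated and 25.6 and 30.6 in sham efferent duct. Here the castrated arrays were lowest and the E2 arrays highest.

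With TP, 1434642_at fell 1.90-fold against castrated efferent duct (log2 difference -0.93, limma adjusted p = 0.0432), while 1421011_at rose 2.41-fold (log2 difference 1.27, adjusted p = 0.0203). With E2, 1421011_at rose 6.44-fold against castrated (log2 difference 2.69, interval 2.05 to 3.32, adjusted p = 0.0111), and 1434642_at had a log2 difference of -0.06 (interval -0.68 to 0.55). These contrasts cross the split in array quality, whose part in the result was not tested. Of 5 adipocyte markers, 3 were called higher and 1 lower with TP and 4 higher with E2, while their sums overlapped, at 7070 and 6674 with TP, 9130 and 6915 with E2 and 6349 and 8467 in castrated efferent duct. Neither TP call held when any 1 array was left out (adjusted p 0.0523 to 0.172 for 1434642_at and 0.0592 to 0.101 for 1421011_at). The E2 call on 1421011_at held without either castrated array and missed without E2 replicate 1 (adjusted p = 0.0825) or E2 replicate 2 (adjusted p = 0.0648). Inside the hormone arrays the log2 difference of TP against E2 was -0.86 for 1434642_at (adjusted p = 0.579) and -1.42 for 1421011_at (adjusted p = 0.321). The third probe set, 1443059_at, had a mean under 16 in all 8 groups.

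The castration effect on Hsd17b11 differed between tissues on 1 probe set. The log2 difference of castrated against sham was -0.43 (efferent duct) and 1.55 (caput) for 1421011_at, and the interaction, efferent duct minus caput, was -1.98 (interval -2.74 to -1.23, limma adjusted p = 0.0252). It was the 1 of 15 enzyme probe sets that passed this test, where 1.67% of all probe sets passed and 0.947% were lower. For 1434642_at the interaction was -1.21 (adjusted p = 0.0612), with log2 differences of -0.50 (efferent duct) and 0.70 (caput). The series text describes both tissues as collected from each sample. When the arrays of 1 treatment and number were joined across tissues as a block, the interaction of 1421011_at missed the threshold (adjusted p = 0.144), and 0 of all probe sets passed in that limma fit (5123 at an unadjusted p under 0.05). With 1 array left out in turn the interaction of 1421011_at was -2.28 to -1.68, and the call was not kept in every such fit. The interaction for TP against E2 passed for 0 of 15 probe sets (1 at an unadjusted p under 0.05; background 0%).

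**Figure D2:**
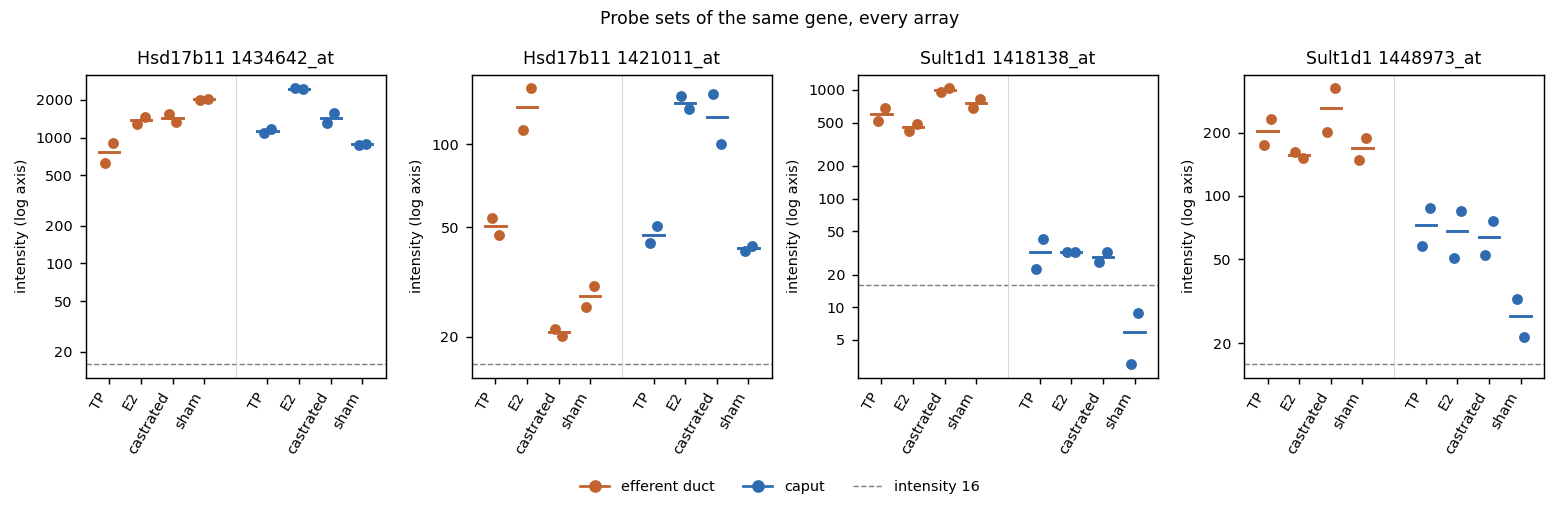
Intensity (log axis) of both brighter probe sets of Hsd17b11 and both probe sets of Sult1d1, with 1 point per array and a bar at each group mean; the dashed line is at 16. In the caput both Hsd17b11 probe sets were lowest in the sham and TP arrays. In the efferent duct castrated was the lowest group on 1421011_at and TP the lowest on 1434642_at, and both Sult1d1 probe sets were lowest in sham caput.

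Hsd17b1, which makes estradiol from estrone, and Hsd17b2, which oxidises estradiol and testosterone, were barely detected. Hsd17b1 read 7.41 to 24.7 over the 16 arrays and had a mean under 16 in 6 of 8 groups, the exceptions being castrated efferent duct (17.1 and 24.7) and sham caput (18.7 and 14.4). Hsd17b2 read 0.392 to 26.4, with a mean under 16 in 7 of 8 groups. The remaining group, castrated efferent duct, had arrays at 26.4 and 5.74. Neither gene passed the test in any comparison.

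Hsd11b2, which inactivates glucocorticoids, was lower with TP than in any other caput group. It read 3.10 and 8.24 on the TP arrays of the caput, 72.7 and 65.6 with E2, 64.7 and 43.6 in castrated and 36.8 and 15.9 in sham. Both TP arrays lay under 16. TP was at least 4.32-fold lower than E2, taking 16 as the TP level (fitted log2 difference -3.77, 95% interval -5.31 to -2.23, limma adjusted p = 0.0723). Against castrated caput it was at least 3.32-fold lower (fitted log2 difference -3.39, adjusted p = 0.0810). Both differences missed the threshold, and both passed it under 3 alternatives (the dimmest 40% left out, an intensity trend, 1 model over 16 arrays).

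In the efferent duct Hsd11b2 read 9.25 and 11.4 with TP, 6.70 and 10.7 with E2, 23.1 and 25.9 in castrated and 6.87 and 14.4 in sham. The castrated arrays were thus the only ones above 16 in this tissue. Castrated was at least 1.53-fold higher than sham, and E2 at least 1.53-fold lower than castrated, taking 16 for the dim group. Neither difference passed (fitted log2 difference 1.30, limma adjusted p = 0.286, and -1.53, adjusted p = 0.0544). With values under 16 set to 16 the log2 differences were 0.61 and -0.61, and both passed (adjusted p = 0.0408 and 0.00499), in a fit where the dim arrays all sit at 16 and so have no spread. The interaction of TP against E2 between tissues did not pass (adjusted p = 0.222), and no size is given for it because 3 of its 4 groups had means under 16.

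Hsd11b1, which regenerates active glucocorticoid, was brighter in efferent duct than in caput in the TP, E2, castrated and sham groups alike, tissue and kit being confounded. It read 374 and 323 with TP, 640.4 and 424 with E2, 162 and 151 in castrated and 272 and 355 in sham efferent duct. The castrated arrays were below all others of the tissue. Against castrated, Hsd11b1 rose 2.22-fold with TP (log2 difference 1.15, limma adjusted p = 0.0351) and 3.33-fold with E2 (log2 difference 1.73, interval 1.02 to 2.45, adjusted p = 0.0157). Neither call held when any 1 array was left out (adjusted p 0.0882 to 0.149 for TP and 0.0501 to 0.0892 for E2).

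These hormone contrasts cross the split in array quality, and macrophage markers moved with them. Of 6 macrophage markers, 4 were called higher with TP and 2 with E2, with sums of 3395 and 1899.98 with TP, 3050.3 and 1973 with E2 and 1685 and 928 in castrated efferent duct, and their part in the result was not tested. Within the vehicle arrays, castrated against sham had a log2 difference of -0.99 (interval -1.70 to -0.28, limma adjusted p = 0.241). In the caput Hsd11b1 read 42.7 and 109 with TP, 95.5 and 108 with E2, 101 and 109 in castrated and 192 and 131 in sham. Only the sham arrays stood clear of the rest, and no caput difference passed.

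Srd5a3, which reduces polyprenol for protein glycosylation and belongs to the steroid reductase family, had 5 probe sets that did not move together. The endings _s_at and _x_at mark designs whose probes can also match other transcripts. The brightest, 1423574_s_at, read 72.0 and 64.7 with TP, 67.1 and 46.9 with E2, 26.3 and 14.5 in castrated and 46.7 and 68.0 in sham efferent duct, and the castrated arrays were lowest. It rose 3.50-fold with TP (log2 difference 1.81, limma adjusted p = 0.0245) and 2.87-fold with E2 (log2 difference 1.52, adjusted p = 0.0430) against castrated. Probe set 1445180_at ran the other way: it read 13.4 and 12.4 with TP, 11.7 and 15.1 with E2, 34.3 and 52.5 in castrated and 42.2 and 37.6 in sham efferent duct. Both hormone groups were at least 2.65-fold lower than castrated on it (adjusted p = 0.0136 for TP and 0.0165 for E2). These contrasts cross the array split. On 1423574_s_at both calls held only without castrated replicate 1, with adjusted p up to 0.111 for TP and 0.190 for E2 when another array was left out. On 1445180_at both held without either castrated array and missed without either array of the hormone group (adjusted p 0.0551 and 0.0686 for TP, 0.0702 and 0.0986 for E2).

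In the castrated against sham comparison of the efferent duct, which lies inside the vehicle arrays, 1423574_s_at had a log2 difference of -1.53 (limma adjusted p = 0.198). In the caput it read 115 and 129 with TP, 148 and 127 with E2, 108 and 88.1 in castrated and 100.2 and 122 in sham. The caput groups lay close together and none of their differences passed, with a castrated against sham log2 difference of -0.18 (interval -0.65 to 0.30). Probe set 1423573_at, designed on the same sequence record, read 63.9 and 78.9 with TP, 137 and 118 with E2, 94.0 and 80.6 in castrated and 109 and 107 in sham caput. TP arrays were lowest and E2 arrays highest on it, with a log2 difference of TP against E2 of -0.84 (adjusted p = 0.125).

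Sult1e1, the estrogen sulfotransferase, read higher with TP than with E2 in both tissues, without overlap, although neither difference passed. It read 898 and 799 with TP, 409 and 315 with E2, 121 and 172 in castrated and 382 and 869 in sham efferent duct. The TP arrays lay above the E2 arrays and those above the castrated arrays, while the sham arrays were spread over the range of both hormone groups. TP was 5.87-fold higher than castrated (log2 difference 2.55, interval 1.45 to 3.66, limma adjusted p = 0.0148), a contrast that crosses the array split. The call held without castrated replicate 2 and missed without any other single array (adjusted p 0.0540 to 0.0789, the highest without TP replicate 1). E2 against castrated gave a log2 difference of 1.32 (adjusted p = 0.0862).

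Within the vehicle arrays Sult1e1 was 3.99-fold lower in castrated than in sham efferent duct (log2 difference -2.00, interval -3.10 to -0.89), which did not pass (limma adjusted p = 0.164). Sham replicate 2, the one with more caput transcripts, was the higher sham array, although both sham caput arrays read below either. Any part of those transcripts was not tested. In the caput Sult1e1 read 115 and 181 with TP, 46.4 and 31.3 with E2, 24.5 and 67.6 in castrated and 54.3 and 61.3 in sham. The TP arrays were above all other caput arrays. TP against E2 had a log2 difference of 1.92 in the caput (interval 0.57 to 3.27, adjusted p = 0.204) and of 1.24 in the efferent duct (interval 0.14 to 2.34, adjusted p = 0.683).

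**Figure D3:**
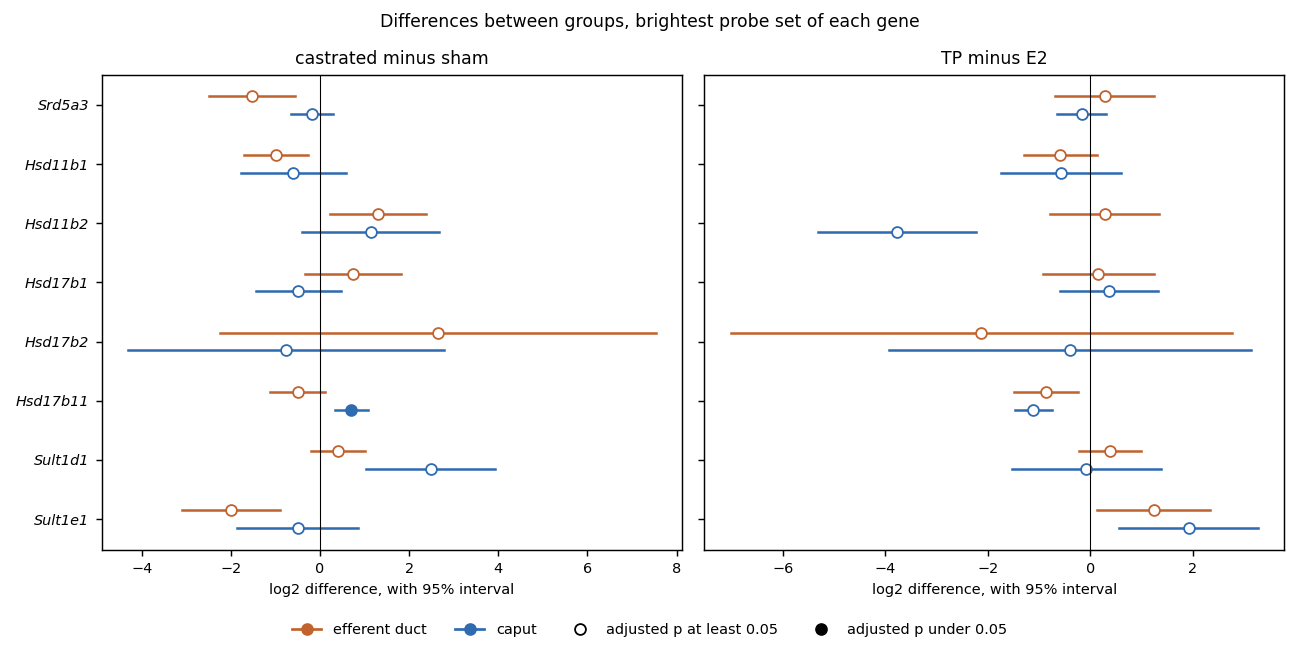
Log2 difference of castrated minus sham (left) and of TP minus E2 (right) for the brightest probe set of each gene, in efferent duct and caput, with 95% intervals from the limma fit; filled points had an adjusted p under 0.05. The filled point is Hsd17b11 in castrated against sham caput, at 0.70, and the Hsd11b2 point in TP against E2 caput, at -3.77, is a fitted value against a TP mean under 16 and becomes -2.11 with values under 16 set to 16.

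Sult1d1, a sulfotransferase known in mice for acting on catecholamines, was far brighter in efferent duct than in caput. Probe set 1418138_at read 515 and 682 with TP, 419.5 and 487 with E2, 966 and 1035 in castrated and 684 and 830.2 in sham efferent duct. The castrated arrays were highest and the E2 arrays lowest. E2 was 2.21-fold lower than castrated (log2 difference -1.14, interval -1.75 to -0.54, limma adjusted p = 0.0270), and TP had a log2 difference of -0.75 (adjusted p = 0.0680). The E2 call crosses the array split and was lost when any 1 array was left out (adjusted p 0.0741 to 0.136). On the dimmer probe set, 1448973_at, the E2 difference was -0.71 (adjusted p = 0.166).

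In the caput 1418138_at read 22.5 and 42.4 with TP, 32.5 and 32.6 with E2, 26.2 and 32.2 in castrated and 3.02 and 8.93 in sham. All 6 arrays of castrated mice, with or without hormone, lay above both sham arrays. Castrated was at least 1.81-fold higher than sham (fitted log2 difference 2.48, limma adjusted p = 0.0634). Probe set 1448973_at showed the same order, with 57.7 and 87.5 with TP, 51.0 and 85.2 with E2, 52.3 and 76.1 in castrated and 32.3 and 21.4 in sham caput, and a castrated against sham log2 difference of 1.26 (adjusted p = 0.120).

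Between sham tissues 8 of 15 enzyme probe sets passed, 5 higher and 3 lower in efferent duct than in caput, where 52.3% of all probe sets passed, 19.9% higher and 32.4% lower. Sult1d1 was at least 47.1-fold higher in efferent duct than in caput on 1418138_at (limma adjusted p = 2.44e-06) and 6.38-fold higher on 1448973_at (adjusted p = 0.000215). Sult1e1 was 9.98-fold higher (adjusted p = 0.000446) and Hsd17b11 2.29-fold higher on 1434642_at (adjusted p = 0.000535). Hsd17b11 probe set 1421011_at ran the other way, at 25.6 and 30.6 in efferent duct against 41.0 and 42.7 in caput. Its log2 difference of -0.58 did not pass (limma adjusted p = 0.0659). These sulfotransferase and Hsd17b11 calls held with any 1 sham array left out. Cell type markers differed in the same comparison: all 5 adipocyte markers were called higher in efferent duct, with sums of 6923 and 5963 against 841 and 549 in caput. So were 3 of 6 fibroblast markers. Of 6 efferent duct epithelium markers, 4 were called higher and 1 lower, and 4 of 6 caput principal cell markers were called lower. Their part in the enzyme differences was not tested. Hsd11b1 had a log2 difference of 0.97 (adjusted p = 0.0654). The brightest Srd5a3 probe set was 1.96-fold lower in efferent duct (limma adjusted p = 0.0252). When 1 sham array was left out, that call held only without sham replicate 2 of the efferent duct. Over 7 alternative fits with all arrays its log2 difference was -0.97 to -0.52, and 6 passed (limma adjusted p 0.0106 to 0.221). Also, 2 others, 1439241_x_at and 1456691_s_at, which share a sequence record, were at least 2.56-fold and 2.89-fold lower. Without sham replicate 2 of the efferent duct these 2 missed the threshold (adjusted p = 0.0723 and 0.0675). Srd5a3 probe set 1445180_at again ran the other way, at least 2.35-fold higher (adjusted p = 0.00931), and missed without sham replicate 2 of the caput (adjusted p = 0.0777). The 15 probe sets had a median log2 difference of -0.42 and all probe sets one of -0.43. The median of the 15 fell on dim Hsd17b1, with means of 12.3 in efferent duct and 16.5 in caput.

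Of 47 other listed genes of steroid synthesis and breakdown, 38 were measured, each by its brightest probe set, and 11 of them had a mean under 16 in every group. In the caput 4 passed for castrated against sham, where 7.98% of all probe sets passed, with a median log2 difference of 0.09 over the 38. Cyp11a1, which cleaves the cholesterol side chain, fell 2.92-fold (limma adjusted p = 0.0161) and Hsd3b7, a bile acid synthesis enzyme, 1.53-fold (adjusted p = 0.0475). Cyp11a1 is also 1 of 4 measured Leydig cell markers, with sums of 75.5 and 87.6 in castrated against 195 and 201 in sham caput. Among the others, Cyp17a1 read 11.9 and 11.1 against 71.0 and 60.1, and Star 24.0 and 20.8 against 23.3 and 20.7. Hsd17b3 had a mean under 16 in both groups. The part of such cells was not tested. Cyp39a1, an oxysterol hydroxylase, rose 2.15-fold (adjusted p = 0.0299) and Akr1c19 2.11-fold (adjusted p = 0.0324). In the caput none passed with limma for TP against castrated (10 at an unadjusted p under 0.05, background 0.646%), E2 against castrated (3, background 0%) or TP against E2 (10, background 0.724%). Hsd17b14, a dehydrogenase, was at least 1.54-fold lower with TP than with E2 there (fitted log2 difference -4.54, adjusted p = 0.148), which is named because it stood out after its values were seen.

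In the efferent duct, 5 of the 38 rose and 5 fell with TP against castrated, and 7 rose and 3 fell with E2, with medians over the 38 of -0.23 and 0.22. Over all probe sets 17.8% were called higher and 10.4% lower with TP, and 15.4% higher and 7.84% lower with E2. Both contrasts cross the split in array quality, whose part in these differences was not tested. Sult1a1, a phenol sulfotransferase, rose 4.12-fold with TP and 4.14-fold with E2 (limma adjusted p = 0.0105 and 0.0128). Hsd3b7 rose 4.50-fold with TP and 3.46-fold with E2, and Akr1c14, a hydroxysteroid dehydrogenase, 3.95-fold with E2. Hsd17b6 was at least 1.03-fold lower with either hormone, and Hsd17b7 2.14-fold lower with E2. Hsd3b2, Ugt2b34 and Sult2b1 were also among the largest but had means under 16 in both groups. In this tissue none of the 38 passed with limma for castrated against sham (8 at an unadjusted p under 0.05, background 0.206%) or for TP against E2 (4, background 0%).

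**Figure D4:**
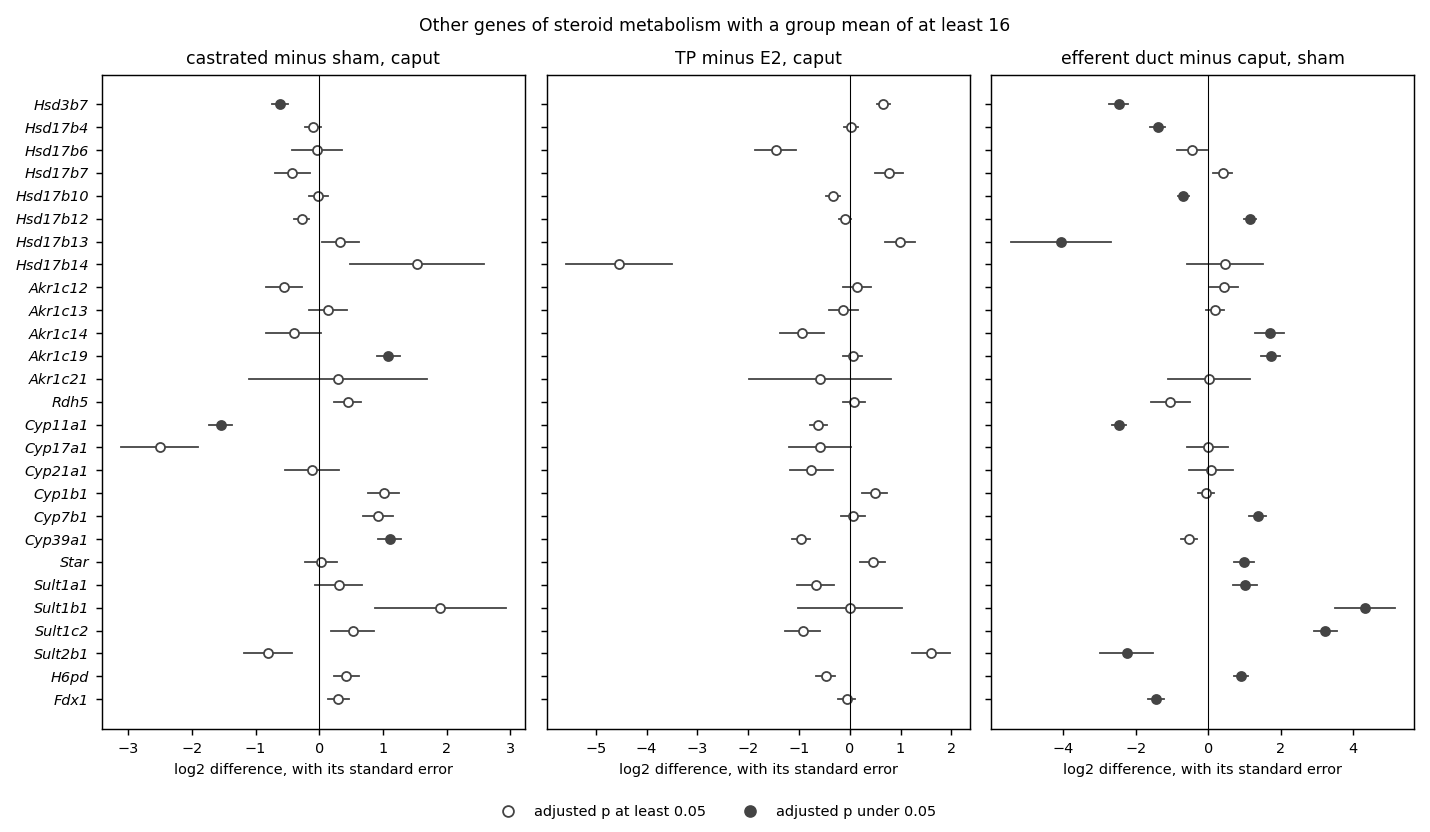
Log2 difference with its standard error for the 27 other genes of steroid metabolism that had a group mean of at least 16, in 3 comparisons; filled points had an adjusted p under 0.05. In castrated against sham caput Hsd3b7 and Cyp11a1 were lower and Akr1c19 and Cyp39a1 higher, no point is filled for TP against E2, and 16 points are filled between the sham tissues.

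Between sham efferent duct and caput 9 of the 38 were higher and 8 lower, with a median log2 difference of 0.04. Over all probe sets 52.3% passed, 19.9% higher and 32.4% lower. Sult1c2 was 9.35-fold, Sult1b1 at least 1.44-fold and Akr1c19 3.29-fold higher in efferent duct. Hsd3b7 was 5.56-fold and Hsd17b13 at least 1.16-fold lower, and Cyp3a13 had means under 16 in both tissues. Sult1c2 and Sult1b1 belong, with the enzymes Sult1d1 and Sult1e1 above, to the cytosolic sulfotransferases.

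The genes whose levels ran most like the enzymes were sought by Pearson correlation of log2 intensity among 10187 genes, for the 4 enzymes with the widest span of group means. Over the 16 arrays Sult1d1 ran closest to Ppil6 (r = 0.992), Rsph4a (r = 0.992) and Ccdc153 (r = 0.991). Sult1e1 ran closest to Ephx2 (r = 0.957), Capn2 (r = 0.937) and Pxmp4 (r = 0.934), and Hsd11b1 to Ctla2a (r = 0.941), Cd163 (r = 0.940) and Mrc1 (r = 0.933). Srd5a3 ran closest to Aldh1a2 (r = 0.960), Uqcc2 (r = 0.958) and Tmem147 (r = 0.958). These points share tissue, kit and array set. Over the 8 caput arrays alone the closest genes were others, namely Socs4, Gemin8 and Mns1 for Sult1d1, Gmppa, Sec22b and Serinc3 for Sult1e1, 9530057J20Rik, Xpa and Ces1f for Hsd11b1, and Poldip2, Zfp329 and Rnpepl1 for Srd5a3.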

How the data were processed

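The deposited values were linear intensity per probe set. RMA is the tool named in the submitters' processing notes, with no version. The deposited values were not on a log2 scale, and their mean per array, with 2% trimmed at each end, was 125, so log2 was taken here. Of 45101 probe sets, 932 had several symbols and 9211 none in the platform annotation and were not used. limma 3.58.1 (R 4.3.3) gave the fits, with 1 model for each tissue and 1 over 16 arrays for tissue differences, and Benjamini-Hochberg adjustment. A fold against a group with a mean under 16 was computed against 16. The fit was tested on simulated data. Alternatives were 1 probe set per gene, quantile normalization, filters and floors on dim values, an intensity trend, 1 model over 16 arrays, blocks and each array left out. All enzyme probe sets were named, and up to 3 other pathway genes each way per comparison. The enzymes and lists were chosen with earlier results of these data known. Same-numbered arrays of a tissue did not deviate together (correlation -0.17 to 0.09), nor clearly those of 1 treatment in both tissues (-0.02 to 0.12). Tables were made in pandas 2.3.3 under Python 3.11.15 and plots in matplotlib 3.10.9.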

Additional observations from a re-analysis of the deposited data

Results flagged for a closer look

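The effect of castration on Hsd17b11 probe set 1421011_at differed between efferent duct and caput by a test of the difference itself (log2 difference -1.98, efferent duct minus caput, limma adjusted p = 0.0252). The brighter 1434642_at missed (-1.21, adjusted p = 0.0612). For 1421011_at the call was lost with treatment and number as a block across tissues (adjusted p = 0.144). Its efferent duct arrays were dim, at 21.4 and 20.2 in castrated and 25.6 and 30.6 in sham. The estimate kept its sign with each of the 8 arrays left out in turn (-2.28 to -1.68, adjusted p 0.0365 to 0.0844), and 4 of those 8 fits passed the threshold.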

How the results depend on the processing

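Over all probe sets the median half-width of a 95% interval was 0.95 (efferent duct) and 0.69 (caput) on the log2 scale, which limits what 2 arrays a group can show. With all arrays, 6 enzyme probe sets were called for TP and 5 for E2 against castrated efferent duct. The counts were 2 for castrated against sham caput, 1 for the castration interaction and 8 for the tissue difference in sham. Leaving out 1 array leaves 1 array in a group. Each comparison inside a tissue that had calls then had fewer of them over all probe sets. An enzyme call lost in such a fit therefore does not single out its gene or the array left out. Quantile normalization left 2 calls for TP and 3 for E2 against castrated efferent duct, and the median log2 difference of all probe sets moved from 0.15 and 0.24 to -0.03 and -0.04. With the dimmest 40% left out the counts were 3 (TP against castrated caput), 1 (E2 against castrated caput), 4 (TP against E2 caput) and 2 (castration interaction), against 0, 0, 0 and 1. With values under 16 set to 16 they were 1 for castrated against sham efferent duct, 1 for E2 against castrated caput, 2 for TP against E2 caput and 2 for the interaction. With an intensity trend they were 1 for castrated against sham efferent duct, 4 for castrated against sham caput, 3 for TP and 1 for E2 against castrated caput, 5 for TP against E2 caput and 3 for the interaction. With 1 model over 16 arrays they were 1 for castrated against sham and 1 for TP against E2 in the efferent duct, and 2 for TP against castrated and 3 for TP against E2 in the caput. With the brightest probe set per gene, 1 passed for TP against E2 caput and 4 for the tissue difference, of 8 tested; quantile normalization gave 1 for TP against E2 caput. The cause of these moves was not tested. The replicate number as a block gave 0 for castrated against sham caput and 4 for TP against castrated efferent duct; the numbers were not shown to pair these arrays. Over all probe sets it left 1074 of 2788 for castrated against sham caput, 1 of 226 for TP against castrated, 0 of 253 for TP against E2, and 0 of 72 for castrated against sham efferent duct. Treatment and number as a block across tissues, chosen after seeing the data, gave 0 for the castration interaction and 9 for the tissue difference. No estimate with an unadjusted p under 0.05 changed sign in 635 alternative fits; among the other estimates 122 of 1158 did.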
